A study of Mus musculus with 6 samples.

Results

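The retinal autoantigens described here are 9 genes of the eye, namely Rbp3, Sag, Gnat1, Gnat2, Rlbp1, Rpe65, Rcvrn, Crx and Nrl. They were taken by symbol from the authors' expression matrix, where 11 probes carried one of these names, out of 21651 genes with a symbol. Expression was measured in medullary thymic epithelial cells (mTECs) sorted from the thymus of mice 30 days old, either MBD1 WT or MBD1 KO, with 3 samples per genotype on Agilent 1-colour arrays. The sort kept DAPI-negative cells with EPCAM and MHC class II and removed those with CD11c, CD45 or Ly51, per the labels' protocols. The design text gives biological replicates but not whether each was 1 mouse or a pool, and the sources used here do not give the strain, the deleted part of Mbd1 or the cells that carry the deletion. The matrix values are on a log2 scale, and a difference is KO minus WT on that scale throughout.

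mTECs express proteins that otherwise belong to single organs, so that developing T cells that recognise them can be removed or turned into regulatory T cells. Aire, the autoimmune regulator, and the transcription factor Fezf2 each drive a share of these antigens. Rbp3, the interphotoreceptor retinoid-binding protein, is a known Aire-dependent antigen and the classical target of autoimmune uveitis. MBD1 binds methylated CpG sites in DNA, and with its partner ATF7ip it forms a complex that Aire is known to contact. The comparison addresses whether retinal antigens have other levels in mTECs without Mbd1.

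The samples carry a conflict between their labels and their values. By Spearman's rank correlation, 5 of the 6 matrix columns had a value of 1.0 with 1 scanner array each. That array carried the column's own title in 0 cases, and in 4 cases its title named the opposite genotype. Column KO 1 matched no array (0.985 at best), and no column matched the array titled KO 2. The column names are used as genotypes below unless array titles are named, and every direction depends on that. Mbd1, the targeted gene, had values of 8.83, 8.60 and 9.0 in the WT columns and 5.64, 5.61 and 5.60 in the KO columns. The difference was -3.19 (SE 0.19, limma adjusted p = 5.62e-05). The Mbd1 values thus go with the column names as genotypes. The arrays titled WT 1 and WT 3 equalled columns KO 2 and KO 3, where Mbd1 was low. Those titled KO 1 and KO 3 equalled columns WT 2 and WT 3, where it was high. Markers of mTECs fixed in a list (12 genes, all detected) had a mean level of 13.17 to 13.26 in the WT columns and 13.15 to 13.21 in the KO columns. Aire differed by 0.30 (SE 0.26, limma adjusted p = 0.999) and Fezf2 by -0.02 (SE 0.28, limma adjusted p = 0.999). Between 73.3% and 80.8% of probes were well above background per array.

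Because MBD1 reads CpG sites, the upstream sequences of the genes are shown first. RefSeq promoters (GRCm38.p6) were found for 7 of the 9 genes, and the 250 bases before the annotated start were examined. The sequences printed are those of Rbp3, the uveitis antigen, of Sag and Rpe65, whose values varied together over the columns, and of Rlbp1, whose genotypes did not overlap. They lie at chr14:33953753-33954002 (plus strand), chr1:87803430-87803679 (plus strand), chr3:159598931-159599180 (plus strand) and chr7:79387028-79387277 (minus strand), in this order, and run 5′ to 3′ on the gene's strand with each CpG in capitals.
Rbp3: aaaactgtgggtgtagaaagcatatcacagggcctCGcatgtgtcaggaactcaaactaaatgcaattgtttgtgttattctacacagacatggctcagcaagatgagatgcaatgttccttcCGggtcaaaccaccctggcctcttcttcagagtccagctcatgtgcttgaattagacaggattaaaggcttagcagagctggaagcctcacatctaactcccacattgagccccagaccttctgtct
Sag: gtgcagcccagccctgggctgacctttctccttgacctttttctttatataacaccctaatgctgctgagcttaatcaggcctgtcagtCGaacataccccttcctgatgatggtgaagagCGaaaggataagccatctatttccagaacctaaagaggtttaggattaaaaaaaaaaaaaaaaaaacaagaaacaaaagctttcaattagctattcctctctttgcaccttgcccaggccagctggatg
Rpe65: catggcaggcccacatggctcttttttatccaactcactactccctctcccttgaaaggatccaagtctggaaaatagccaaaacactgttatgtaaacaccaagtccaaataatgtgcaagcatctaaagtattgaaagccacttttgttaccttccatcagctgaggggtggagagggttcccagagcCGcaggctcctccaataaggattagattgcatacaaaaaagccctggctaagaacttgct
Rlbp1: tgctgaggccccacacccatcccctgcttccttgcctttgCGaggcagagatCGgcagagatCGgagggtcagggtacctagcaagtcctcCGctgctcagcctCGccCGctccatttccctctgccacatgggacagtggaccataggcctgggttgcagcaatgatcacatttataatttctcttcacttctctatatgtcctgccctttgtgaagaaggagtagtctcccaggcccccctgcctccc

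CpG sites were few in most of these windows. Rpe65 and Crx had 1 site each, Rbp3, Sag and Nrl had 2, Gnat2 had 5 and Rlbp1 had 6. The median over 32851 promoters of the same length was 6, with quartiles of 2 and 16. Thus 5 of the 7 genes lay at or under the lower quartile, while 71.0% of promoters had more than 2 sites. Fewer sites than in Rpe65 and Crx were found in 7.9% of promoters, and fewer than in Rlbp1 in 49.6%. Methylation itself was not measured here.

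**Figure D1:**
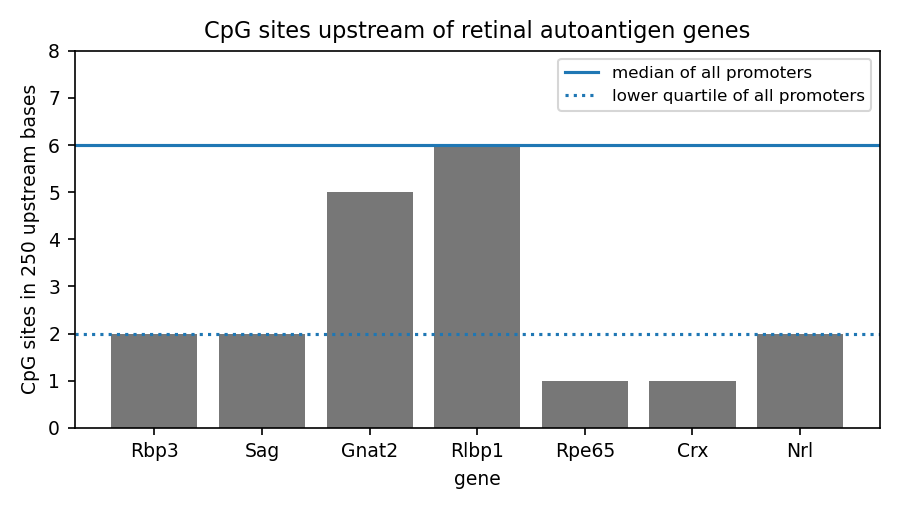
CpG sites in the 250 bases upstream of the start of each gene with a RefSeq promoter (bars, count on the vertical axis), with the median of all promoters as a solid line at 6 and the lower quartile as a dotted line at 2. Rpe65 and Crx have 1 site each, and Rlbp1, with 6, is the only one of the 7 at the median.

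A pair of short motifs was searched on both strands of the same windows. GGATTA, the core that Crx and its relatives in the Otx family are known to bind, occurred in 5 of the 7 windows, those of Rbp3, Sag, Gnat2, Rpe65 and Crx itself, and in 6.3% of all promoters. In the printed windows it reads gacaggattaaagg in Rbp3 and ataaggattagatt in Rpe65. TGCTGA, the core half-site of the Maf family to which Nrl belongs, occurred in 3 of the 7, those of Rbp3, Sag and Rlbp1, and in 16.1% of all promoters. The motifs cannot overlap each other, and a match is one of letters only.

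None of the retinal autoantigens with a tested probe passed the threshold between genotypes. The test took probes detected well above background on 3 or more of the 6 arrays, which left 8 of the 9 genes. Of these 8, 0 passed at a limma adjusted p under 0.05, where 0.179% of the 21280 features tested did (38 of them, 35 higher and 3 lower in the KO columns). At an unadjusted p under 0.05 there was 1 of the 8, Rlbp1, against 4.32% of all features (2.42% higher and 1.9% lower in the KO columns). Again 1 of the 8, Rlbp1, had genotypes that did not overlap, against 8.42% of all features, or 4.32% with the KO columns above. The differences ran from -0.35 for Nrl to 0.47 for Rlbp1 with a median of -0.07, and 3 were positive and 5 negative, where all features had a median of 0 and ran from -3.19 to 4.22. The smallest p of an exact permutation test with 3 columns per genotype is 0.1, and limma, which pools the spread over features, was used for that reason.

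**Figure D2:**
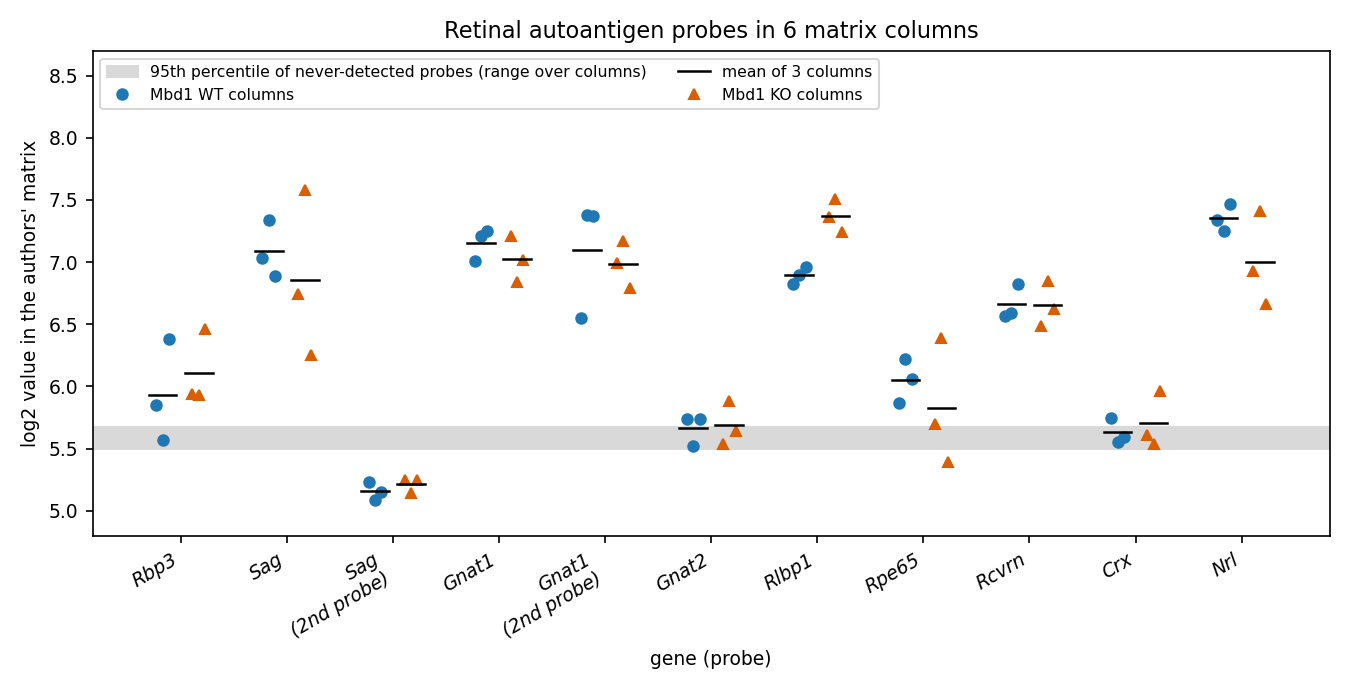
Log2 value of each of the 11 probes in the 3 WT columns (circles) and 3 KO columns (triangles) of the authors' matrix, with the mean of each genotype as a bar. The grey band is the range over columns of the 95th percentile of probes never detected, 5.50 to 5.67. The genotypes are apart only for Rlbp1, and Gnat2, Crx and the 2nd Sag probe lie at or under the band or reach just above it. Rpe65 lies under the band in KO 3 (5.39), and Rbp3 lies within it in WT 2 (5.57).

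The carriers of retinoids, the vitamin A derivatives that serve as the visual pigment's light-absorbing group, come first. Rbp3 (probe A_51_P331690, chromosome 14), which carries them between photoreceptors and pigment epithelium, had values of 5.85, 5.57 and 6.38 in WT columns 1 to 3 and 5.94, 5.93 and 6.46 in KO columns 1 to 3. The highest value of each genotype was in column 3, and the genotypes overlapped. The difference was 0.17 (SE 0.25, 95% interval -0.38 to 0.73, limma adjusted p = 0.999), an interval from 0.769-fold to 1.66-fold on this scale. Rbp3 was above the level of never-detected probes in 5 of the 6 columns and well above background on 4 of the 6 arrays. So near background, a change in either direction, if there was one, would be understated. With slide as a block over 5 columns, in effect 1 WT against 2 KO columns on 1 slide, the difference was 0.34. With 1 column left out, it ran from -0.01 (without WT 2) to 0.40 (without WT 3).

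Rlbp1 (probe A_51_P211793, chromosome 7) encodes the cellular retinaldehyde-binding protein of the pigment epithelium and of Müller glia. It had values of 6.82, 6.90 and 6.96 in the WT columns and 7.36, 7.51 and 7.24 in the KO columns. Every KO column lay above every WT column. The difference was 0.47 (SE 0.18, 95% interval 0.07 to 0.88), a ratio of 1.39, with an unadjusted p of 0.0262 that did not pass over all features (limma adjusted p = 0.996). The authors' deposited table gives a log2 ratio of 0.47 for this probe, with an unadjusted p of 0.0114 and an FDR of 1. In order of p, the gene stood at place 560 among the 21280 features.

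Among the markers of other cells, 3 lists had mean levels that were higher in every KO column than in every WT column, as Rlbp1 had, although the sort against CD45, CD11c and Ly51 was set to remove those cells. The 9 T cell markers were all detected, 8 of them had a positive difference, and their mean level was 7.84 to 8.10 in the WT columns and 8.39 to 8.66 in the KO columns. The 6 dendritic cell and macrophage markers had a mean level of 9.90 to 9.93 against 10.03 to 10.31, with 4 positive, and the 5 cortical epithelial markers 10.55 to 10.84 against 10.88 to 11.01, with 4 positive. Mean levels of B cell, mesenchyme and endothelium, and tuft cell markers overlapped between the genotypes. None of these markers passed the limma test on its own, and their part in the value of Rlbp1 was not tested. In bulk samples, more cells of a type and more RNA per cell cannot be told apart. On slide 1, the one that held columns of both genotypes, Rlbp1 differed by 0.55 between 1 WT and 2 KO columns. With slide as a block over the 5 columns of known slide, the estimate is the same by construction. The columns known to be on slide 2 were all WT, so slide and genotype are nearly confounded.

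Rpe65 (probe A_51_P404800, chromosome 3) is the isomerase of the pigment epithelium that regenerates the chromophore. Its values were 5.87, 6.22 and 6.06 in the WT columns and 5.70, 6.39 and 5.39 in the KO columns. KO 2 was the highest and KO 3 the lowest of the 6 columns, the latter under the level of never-detected probes. The difference of -0.22 (SE 0.26, 95% interval -0.79 to 0.35, limma adjusted p = 0.999) was 0.02 with slide as a block over 5 columns, and -0.16 over those columns with no block.

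The members of the light-signalling cascade follow. Gnat1 and Gnat2 encode the alpha subunits of transducin, the G protein that couples the visual pigment to its phosphodiesterase in rods and cones, respectively. Gnat1 (probe A_51_P160858, chromosome 9) had values of 7.01, 7.21 and 7.25 in the WT columns and 7.21, 6.84 and 7.02 in the KO columns. Its difference was -0.14 (SE 0.19, 95% interval -0.56 to 0.29, limma adjusted p = 0.999), and its other probe, A_52_P211185, differed by -0.12 (SE 0.25). The values of that other probe spread more among the WT columns, from 6.55 to 7.38. Gnat2 (probe A_51_P359411, chromosome 3) read 5.74, 5.52 and 5.74 in the WT columns and 5.54, 5.88 and 5.64 in the KO columns. The highest value was only 0.38 above the level of never-detected probes in its column, and the difference was 0.02 (SE 0.19, 95% interval -0.40 to 0.44).

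Sag, the rod arrestin or S-antigen, ends the response by binding the light-activated, phosphorylated receptor of rods. Its probe A_51_P511431 (chromosome 1) had values of 7.03, 7.34 and 6.89 in the WT columns and 6.74, 7.58 and 6.25 in the KO columns. KO 2 was the highest column and KO 3 the lowest, as for Rpe65, and the WT columns lay between them. The difference was -0.23 (SE 0.30, 95% interval -0.90 to 0.44, limma adjusted p = 0.999). The other Sag probe, A_52_P39782, was well above background on 0 arrays and lay at 5.09 to 5.25 in the 6 columns, so it gives no reading of the gene.

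Rcvrn encodes recoverin, a calcium sensor of photoreceptors and a known antigen of cancer-associated retinopathy. Its probe A_51_P503922 (chromosome 11) read 6.57, 6.59 and 6.82 in the WT columns and 6.49, 6.85 and 6.62 in the KO columns. The genotypes overlapped almost fully, and the difference was -0.01 (SE 0.19, 95% interval -0.44 to 0.42, limma adjusted p = 0.999).

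The last of the 9 genes are the transcription factors that set photoreceptor identity. Nrl (probe A_52_P620355, chromosome 14), which directs precursors to the rod fate, had values of 7.34, 7.25 and 7.47 in the WT columns and 6.93, 7.41 and 6.66 in the KO columns. KO 1 and KO 3 lay under every WT column, while KO 2 lay among them. The difference was -0.35 (SE 0.22, 95% interval -0.85 to 0.14, limma adjusted p = 0.999). Crx (probe A_52_P656628, chromosome 7), the homeobox activator of rod and cone genes, was well above background on 2 of 6 arrays and was not tested with the others. It read 5.75, 5.55 and 5.59 in the WT columns and 5.61, 5.54 and 5.96 in the KO columns, at most 0.34 above the level of never-detected probes.

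**Figure D3:**
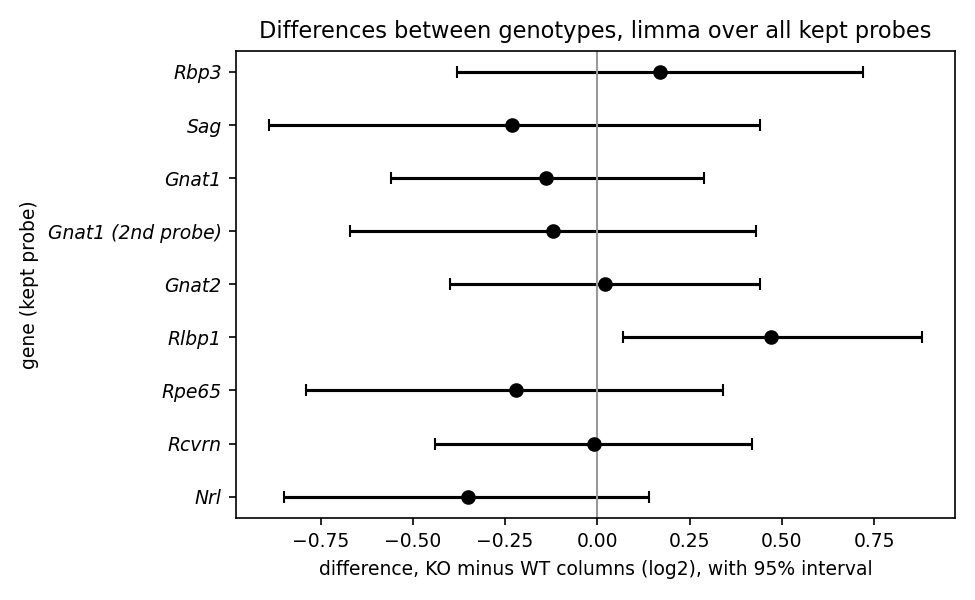
Difference between KO and WT columns (log2, points) with its 95% interval (bars) for each of the 9 kept probes of the 8 tested genes, from limma over all kept probes. The interval excludes 0 only for Rlbp1, at 0.07 to 0.88, before adjustment over the probes.

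One KO column stood at an end of the range for most of these genes. KO 2 was the highest or the lowest of the 6 columns for 6 of the 8 genes (38.2% of all features), being the highest for Sag, Gnat2, Rlbp1, Rpe65 and Rcvrn and the lowest for Gnat1. The KO columns had the larger SD for 7 of the 8 genes, against 55.0% of all features. Without KO 2, 3 of the 8 genes had an unadjusted p under 0.05, where 7.23% of all features did. KO 2 held the highest KO value of each of these 3, so leaving it out lowers their KO mean by construction. Their p-values without KO 2 are therefore descriptive only. Sag differed by -0.59 (unadjusted p = 0.0338, limma adjusted p = 0.667), Rpe65 by -0.50 (unadjusted p = 0.0433, limma adjusted p = 0.68) and Nrl by -0.56 (unadjusted p = 0.0223, limma adjusted p = 0.624). Without KO 3, Sag differed by 0.07, Rpe65 by 0.00 and Nrl by -0.18. The values of these 3 genes in the KO columns thus depended on which column was left out, and 0 of the 8 passed whichever column was left out.

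The levels of Sag and Rpe65 ran opposite to Aire over the matrix columns. Aire had values of 10.94, 10.52 and 10.85 in the WT columns and 11.25, 10.50 and 11.44 in the KO columns, with KO 2 the lowest and KO 3 the highest. Pearson's r with Aire over the 6 columns was -0.98 for Rpe65 (exact permutation p = 0.00139, adjusted p = 0.022 over 16 pairs of a gene with Aire or Fezf2) and -0.95 for Sag (exact permutation p = 0.00417, adjusted p = 0.033). Spearman's rank correlation was -1.0 for Rpe65 (exact permutation p = 0.00278, adjusted p = 0.044) and -0.94 for Sag (exact permutation p = 0.0167, adjusted p = 0.089). Without KO 2 and KO 3, the columns farthest from the median of Aire, r was -0.97 and -0.93, over only the columns left. With each genotype centred on its own mean it was -0.98 and -0.96. The Rpe65 probe was near background, being well above it on 4 of the 6 arrays. Its values lay from -0.23 to 0.89 relative to the level of never-detected probes in their columns. Of the other features, 0.0235% were as strongly negative with Aire as Rpe65 and 0.174% as Sag. The relation was looked for after the values had been seen, and the slides held too few columns for a value within each.

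The same relation did not hold over the 6 scanner arrays. There, with the array titled KO 2 in place of column KO 1 and the processed intensity scaled to each array's 75th percentile, r with Aire was -0.20 for Rpe65 (exact permutation p = 0.719, adjusted p = 0.901 over 8 pairs) and -0.08 for Sag (exact permutation p = 0.857, adjusted p = 0.901). The array titled KO 2 had the highest values of Aire, Sag and Rpe65 of all 6 arrays. Without it and the array titled WT 3, the 2 farthest from the median of Aire, r was -0.90 and -0.96. The sixth sample, the scaling and the background subtraction, which the matrix lacks, all differed at once. Their parts in the change were not tested.

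**Figure D4:**
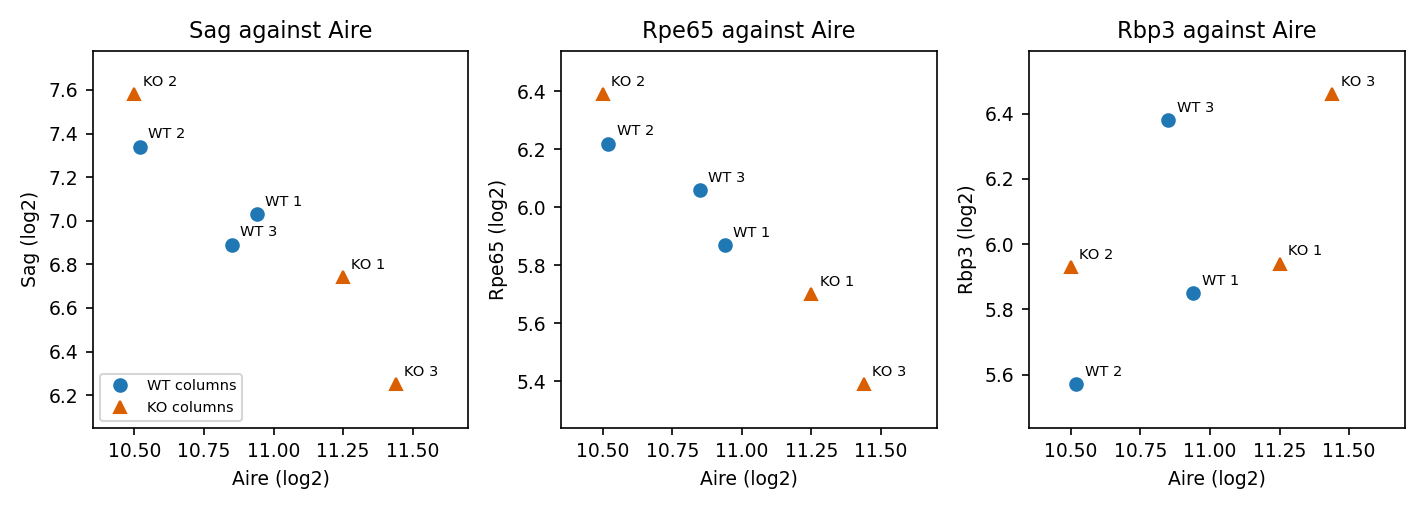
Log2 values of Sag, Rpe65 and Rbp3 (vertical axes, 1 panel each) against Aire (horizontal axes) in the 3 WT (circles) and 3 KO (triangles) columns of the authors' matrix. Sag and Rpe65 are highest in KO 2, where Aire is 10.50, and lowest in KO 3, where Aire is 11.44, while Rbp3 has no such order. In KO 3, Rpe65 lies under the level of never-detected probes.

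Rbp3, the Aire-dependent antigen, had an r of 0.62 with Aire over the columns (exact permutation p = 0.2, adjusted p = 0.356; Spearman 0.60, exact permutation p = 0.242, adjusted p = 0.43) and 0.38 without KO 2 and KO 3. Nrl had an r of -0.83 with Aire (exact permutation p = 0.0486, adjusted p = 0.121; Spearman -0.71, exact permutation p = 0.136, adjusted p = 0.363), which came to -0.58 without those columns. With Fezf2, the largest r was 0.88, for Rpe65 (exact permutation p = 0.0222, adjusted p = 0.119; Spearman 0.94, exact permutation p = 0.0167, adjusted p = 0.089), and it came to 0.62 without KO 2 and KO 3. Of the 28 pairs among the 8 genes, Sag and Rpe65 had the smallest p, with an r of 0.96 (exact permutation p = 0.00556, adjusted p = 0.156; Spearman 0.94, exact permutation p = 0.0167, adjusted p = 0.467) and 0.82 without KO 2 and KO 3. None of the 28 passed after adjustment.

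The genes whose values over the 6 columns were most like those of Rbp3, out of 18567 others with a symbol, were Krtap19-2 (r 0.993), Pot1a (r 0.992), Gstk1 (r 0.986), Hdgfl1 (r 0.984) and Olfr907 (r 0.983). A total of 52 genes had an r over 0.9. Krtap19-2, Hdgfl1 and Olfr907 had values from 5.28 to 6.12 over the columns, near the level of never-detected probes, as Rbp3 had. These are descriptions over 6 columns that share the authors' normalization.

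Other eye genes, and relatives of the 9 genes, were read in the same fit. Of the 87 genes tested in 6 lists, 0 passed at a limma adjusted p under 0.05 and 5 had an unadjusted p under 0.05, where 4.32% of all features did. At that unadjusted level there were 13 of the 87 (14.9%) without KO 2, where 7.23% of all features were, and 0 without WT 1, where 4.30% were. Genotypes did not overlap for 2 of 15 visual cycle genes, 2 of 17 structure genes, 1 of 12 transcription factors and 1 of 18 paralogs. They overlapped for all rod and cone genes, and 8.42% of all features had no overlap.

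Among the 17 rod phototransduction genes tested, 12 differences were positive and 5 negative, with a median of 0.07. Pde6g, the inhibitory subunit of the rod phosphodiesterase, differed by 0.48, Gucy2e, a guanylate cyclase, by 0.45 and Slc24a1, the rod cation exchanger, by -0.42.

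The 8 cone phototransduction genes tested had 2 positive and 6 negative differences, with a median of -0.13. Opn1sw, the short-wave cone opsin, differed by -0.35, Pde6h, the cone counterpart of Pde6g, by -0.33, Slc24a2 by -0.25 and Cnga3, a cone channel subunit, by -0.18. For none of the 8 was the unadjusted p under 0.05.

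The 15 genes of the visual cycle and pigment epithelium had 6 positive and 9 negative differences, with a median of -0.02. Abca4, the transporter that clears retinaldehyde from photoreceptor discs, read 7.36, 8.16 and 8.23 in the WT columns and 8.58, 8.31 and 8.93 in the KO columns. Its genotypes did not overlap, and the difference was 0.69 (SE 0.27, unadjusted p = 0.0261, limma adjusted p = 0.996). Best1, a chloride channel of the pigment epithelium, differed by -0.43 with no overlap, Lrat, which esterifies retinol upstream of Rpe65, by -0.62 and Rdh13 by 0.44.

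The 12 photoreceptor transcription factors tested, Crx and Nrl not among them, had 9 positive and 3 negative differences, with a median of 0.14. Rxrg, a retinoid receptor of cones, read 7.25, 7.28 and 7.18 in the WT columns and 7.71, 7.36 and 8.22 in the KO columns, a difference of 0.53 without overlap (SE 0.23, unadjusted p = 0.0448, limma adjusted p = 0.999). Thrb, the thyroid hormone receptor that specifies cones, differed by 0.25 and Esrrb by 0.22.

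The 17 genes of photoreceptor structure and synapse had 12 positive and 5 negative differences, with a median of 0.04. Aipl1, the chaperone of the photoreceptor phosphodiesterase, read 9.18, 9.08 and 8.80 in the WT columns and 8.65, 8.53 and 8.46 in the KO columns. Every KO column lay under every WT column, with a difference of -0.47 (SE 0.19, unadjusted p = 0.0319, limma adjusted p = 0.999). Prph2, the disc rim protein peripherin, read 6.72, 6.94 and 6.57 in the WT columns and 7.09, 6.98 and 7.72 in the KO columns, a difference of 0.52 without overlap (SE 0.23, unadjusted p = 0.049, limma adjusted p = 0.999). Cabp4 differed by 0.44 and Prom1 by 0.34.

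Relatives of the 9 genes that act outside the eye served for comparison. The 18 tested had 8 positive and 10 negative differences, with a median of -0.05. Maf, a relative of Nrl, differed by 0.52, Otx1, a relative of Crx, by -0.27 without overlap and Sec14l2, a relative of Rlbp1, by -0.35. For none of the 18 was the unadjusted p under 0.05.

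**Figure D5:**
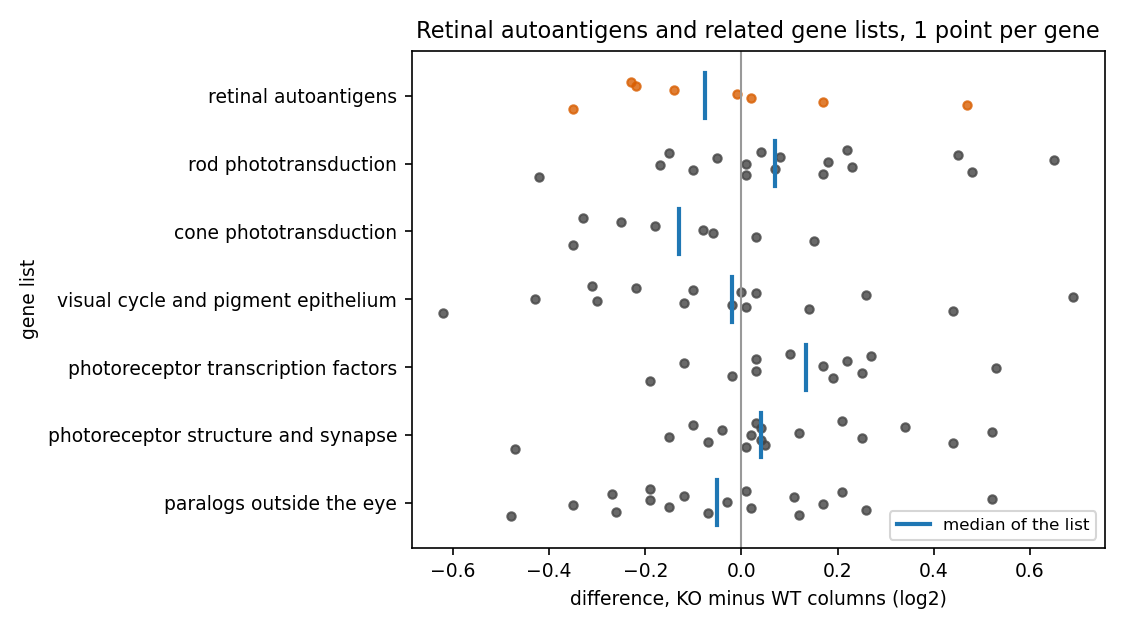
Difference between KO and WT columns (log2, horizontal axis) for each tested gene of the retinal autoantigens and of 6 related lists, 1 point per gene, with the median of each list as a bar. The medians lie between -0.13 for cone phototransduction and 0.14 for photoreceptor transcription factors, and each list spans 0.

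Under the array titles in place of the column names, 0 of the 8 genes passed, and 0 of all 20084 features tested did (0%, limma with the same threshold, with 849 at an unadjusted p under 0.05). Each gene kept the probe of the matrix fit. The arrays titled WT equalled columns WT 1, KO 2 and KO 3, and those titled KO 1 and KO 3 equalled columns WT 2 and WT 3. The titled groups thus mix the genotypes of the columns and are no check on the column result. Rlbp1 had processed intensities of 179, 50.8 and 109 on the arrays titled WT and 74.5, 102 and 125 on those titled KO. The titled groups overlapped, and after scaling the difference was -0.23 (limma adjusted p = 0.984), opposite in sign to the columns. Rbp3 had intensities of 25.8, 13.8 and 45.2 on the arrays titled WT and 6.84, 55.9 and 64.7 on those titled KO, and the scaled difference was 0.00 (limma adjusted p = 1). The array titled KO 1, which equalled column WT 2, was the dimmest for Rbp3, and the 2 arrays on which Rbp3 was not well above background equalled columns WT 1 and WT 2. Sag differed by 0.61 and Rpe65 by 1.16 between the titled groups (limma adjusted p = 0.982 for each), and Gnat1 by -0.42 (limma adjusted p = 0.986).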

How the data were processed

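RNA of sorted mTECs was amplified, labelled with Cy3 and read on 6 Agilent arrays with Agilent's Feature Extraction software. The submitters' processing notes name its version 10.6, while version 10.7.3.1 stands in the files' own headers. The authors' deposited matrix holds log2 values per probe, and their deposited log2 ratio, p-value and FDR are quoted where named. Its tool and genome build are not given in the sources used here. Deposited scanner files hold linear intensity per spot, background-subtracted within the array per the file headers.

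Columns were grouped by name. Probes well above background on 3 or more arrays were kept (32246), outlier spots were left out, and a gene was its kept probe of highest mean. Probes without a symbol were tested as features of their own (2712 of 21280), which was decided after a first fit on genes with a symbol. limma 3.58.1 (R 4.3.3) fitted genotype, with Benjamini-Hochberg adjustment over all features at 0.05, two-sided, and was tested on simulated data. The level of never-detected probes is their 95th percentile per column (5295 probes). Scanner values were the processed intensity, floored at 1, on a log2 scale relative to the array's 75th percentile. An alternative used normexp with offset 50 and quantile normalization on median signals, since the files carry no mean signal. Correlations used exact permutation of 6 samples. Fezf2 was left out of those over arrays, its spot being an outlier on 1 array.

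The 9 genes and all lists were chosen with earlier results of these data known. Besides the 9 genes, those named are Mbd1, Aire, Fezf2, up to 4 genes of smallest p per list and the 5 most like Rbp3. Of the genes this rule names, 3 are not reported here. The lists of rod and cone phototransduction, visual cycle, transcription factors, structure and paralogs, and the markers of 7 cell types, are given by count. The 6 B cell markers had mean levels of 7.73 to 8.21 in the WT and 8.07 to 8.38 in the KO columns, the 6 of mesenchyme and endothelium 8.66 to 9.04 and 8.82 to 9.20, and 4 of tuft cells 10.71 to 10.93 and 10.76 to 11.00. No probe was saturated, and the number of arrays limits the precision. The limma p-values weigh each difference against the spread between these samples, which limma pools in part over features.

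Alternatives changed the filter, the probes per gene, the moderation, the replicate block, the slide, the columns used and the source of values.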

Additional observations from a re-analysis of the deposited data

How the results depend on the processing

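Under 17 alternatives, 0 of the 8 or fewer retinal autoantigens tested (9 without a filter, 5 where detection on all 6 arrays was required) and 0 of the related eye genes passed the threshold. The count of all features passing, 38, was 20 with no filter on dim probes and 20 with features with a symbol only (chosen after seeing the data). It was 0 with slide as a block, 0 within slide 1, and 0 and 0 with the array titles (processed intensity, then normexp and quantile), and 18 to 57 without 1 column, the lowest without WT 2 and the highest without KO 3. With the replicate number as a block it was 63. Same-numbered columns did not deviate together (correlations -0.28, -0.17 and -0.33), which does not exclude that the samples were paired. With this block 0 of the 8 genes passed, as without it, and the unadjusted limma p of Rlbp1 was 0.0746.

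Without 1 column, differences ran from -0.01 to 0.40 for Rbp3, -0.59 to 0.07 for Sag, -0.08 to 0.09 for Gnat2, -0.11 to 0.07 for Rcvrn, -0.50 to 0.00 for Rpe65, -0.56 to -0.18 for Nrl, -0.23 to -0.04 for Gnat1 and 0.40 to 0.54 for Rlbp1. The unadjusted limma p of Rlbp1 was 0.0239 without KO 3 and 0.0543 to 0.0689 without any other single column. With slide as a block over 5 columns, the estimate is by construction that within slide 1. There Rpe65 was 0.02, Rcvrn 0.16, Rbp3 0.34, Sag -0.11 and Gnat1 -0.08. Over the same 5 columns with no block these were -0.16, 0.07, 0.26, -0.17 and -0.23. With array titles and processed intensity, the sign turned for Sag (0.61), Gnat2 (-0.32), Rlbp1 (-0.23), Rpe65 (1.16), Rcvrn (0.05) and Nrl (0.33). It did not turn for Gnat1 (-0.42), and Rbp3 came to 0.00. With normexp it turned for Sag (0.27), Gnat2 (-0.04), Rlbp1 (-0.24), Rpe65 (0.29) and Nrl (0.16), but not for Gnat1 (-0.17). Since the titled groups mix the genotypes of the columns, a turned sign is no check on the column result. Beyond this regrouping, the cause was not tested. Signals near background limit Rbp3, Gnat2, Rpe65 and Crx.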
